A study of Lactuca sativa with 12 samples.

Results

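The first 4 h of cold were examined in lettuce (Lactuca sativa) ‘Salinas’ by comparing the 3 libraries sampled at 4 h with the 3 libraries sampled at 0 h, 6 of the 12 RNA-seq libraries of the series. Cold-treated plants (4 h) were kept at 4 °C and about 100 µmol m−2 s−1 of light, whereas warm-grown plants (0 h) were kept at 20 °C and 350 to 400 µmol m−2 s−1. All plants were 18 days old at the start, grew under a 16-h photoperiod, and were sampled as whole above-ground tissue. Light therefore fell together with temperature, and the hour of the day at harvest is not given in the sources used here, so that cold, lower light and time of day cannot be told apart. Of the 23933 genes in the table, 21786 reached at least 0.5 CPM (reads on a gene divided by all reads on genes and scaled to 1000000) in at least 2 of these 6 libraries and were tested. The remaining libraries, of 24 h and 7 d at 4 °C, entered only the shared estimate of the spread and the comparisons that name them.

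In plants, a drop in temperature is known to open calcium channels and start kinase cascades within minutes. The CBF (DREB1) proteins, AP2-domain transcription factors best known from Arabidopsis, are then made from rapidly induced transcripts and bind a drought- and cold-response element in the promoters of cold-regulated (COR) genes, among them genes for dehydrins and for enzymes of soluble sugars. In Arabidopsis this induction is gated by the circadian clock, so that clock, light and cold inputs meet on the same transcripts.

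Between 18609189 and 18944670 reads lay on genes in the 4 h libraries, against 19503374 to 21008819 in the 0 h libraries. Pearson's r of log2(CPM + 1) between replicates, taken across genes, which are not independent, was 0.990 to 0.994 among the 4 h libraries and 0.993 between 0 h replicates 1 and 2, but 0.975 and 0.978 between 0 h replicate 3 and the other 0 h libraries. In 0 h replicate 3, 694 of the genes tested lay more than 1 log2 unit below the mean of the other 0 h libraries and 62 above it, whereas for 0 h replicates 1 and 2 these numbers were 19 and 20 below and 100 and 70 above. Calls of named genes that were lost without 0 h replicate 3 and group counts that changed without it are given beside the results. Transcripts of the reference genes of the study's qRT-PCR differed little, with a log2 fold change of 0.05 (adjusted p = 0.807) for EIF2a and 0.13 (adjusted p = 0.485) for IPP2. The 8 mesophyll markers, rubisco small subunits and chlorophyll a-b binding proteins, summed to 36229 to 37474 CPM at 4 h and 38552 to 41129 CPM at 0 h, which fits the label of green shoot tissue. None of the mesophyll, the 9 xylem or the 2 phloem markers passed the test in either direction, with medians of -0.08, -0.07 and -0.33. Among the 8 mesophyll markers 1 had a log2 fold change above 0, and in 4 every 4 h library lay below every 0 h library. In bulk tissue, fewer cells of a type and less RNA per cell cannot be told apart.

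At 4 h, 1149 genes were upregulated and 132 were downregulated, that is, 5.27% and 0.606% of the genes tested. Calls required a change of 1 or more in either direction on the log2(CPM + 1) scale, together with a limma p, adjusted by Benjamini-Hochberg, no higher than 0.01. Among upregulated genes 864 had log2 fold changes between 1 and 2, 224 between 2 and 3, 45 between 3 and 4, and 16 above 4. Among downregulated genes 129 lay between -1 and -2, 3 lay between -2 and -3, and none fell further. The median log2 fold change was 1.48 among the upregulated, -1.22 among the downregulated and 0.03 among all genes tested. For all 1281 called genes the 4 h and 0 h libraries did not overlap, which was also so for 22.8% of all genes tested on the upper side and 13.3% on the lower side. With edgeR (quasi-likelihood test, recovered reads), 1373 genes were higher and 281 lower (6.3% and 1.29%) at 4 h, among them 1127 of the 1149 upregulated and all 132 downregulated genes. Leaving out 0 h replicate 3 gave 1112 upregulated and 206 downregulated genes, with 1024 and 108 of the called genes retained.

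**Figure D1:**
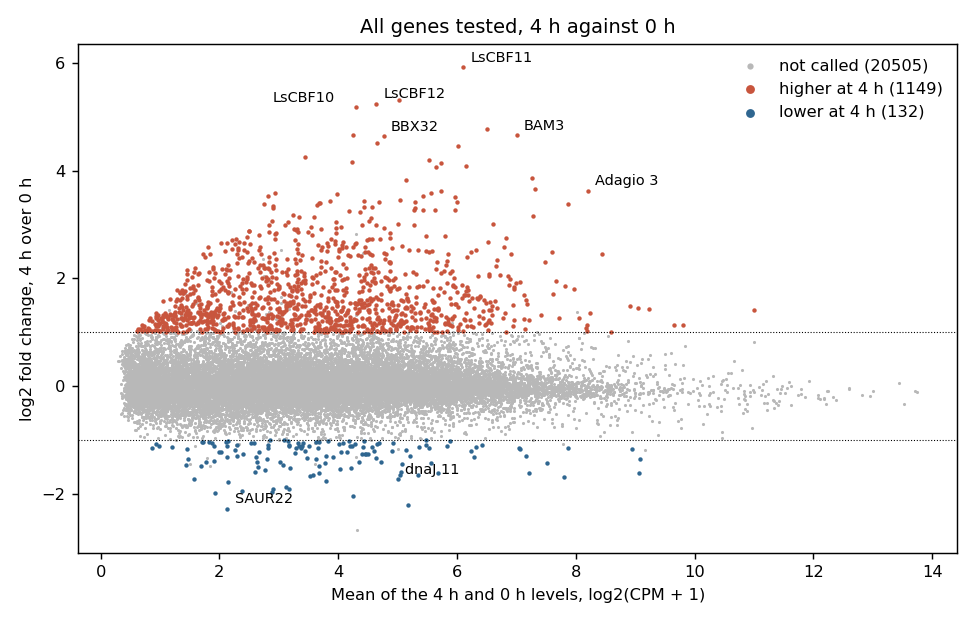
Log2 fold change, 4 h over 0 h, against the mean of the 4 h and 0 h levels, log2(CPM + 1), for the 21786 genes tested. Red points are the 1149 genes higher at 4 h, blue points the 132 lower at 4 h, grey points genes not called, and dotted lines mark log2 fold changes of 1 and -1. The points above the upper line reach 5.93, whereas those called below the lower line stop at -2.27.

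Upregulation was found in 10.7% of the 2384 genes whose mean at 0 h was under 1 CPM, 6.83% of the 8211 genes at 1 to 10 CPM, 3.3% of the 9657 genes at 10 to 100 CPM, and 0.978% of the 1534 genes at 100 CPM and over. Of the 2384 genes under 1 CPM at 0 h, 743 reached 0.5 CPM in at least 2 libraries of 4 h only, and 160 of these were upregulated, so the share of this class is set in part by the filter. Downregulated genes made up 0%, 0.512%, 0.787% and 0.913% of the same classes. A gene under 1 CPM at 0 h cannot fall by 1 on the log2(CPM + 1) scale, so the 0% was fixed by the pseudocount. The pseudocount also limits falls of genes little above 1 CPM, so no trend is read from these shares. Over the 9 linkage groups of the lettuce genome the upregulated share ranged between 4.16% (linkage group 5) and 6.41% (linkage group 3), and the downregulated share between 0.491% and 0.713%. In 30 of the upregulated genes every 0 h library had at most 3 reads, and 7 had no read at 0 h.

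Gene functions were read from the descriptions of 1619 genes in the study's list of COR genes, held here for linkage groups 0 to 3 and part of 4. That list was chosen on these samples, so a high share of called genes in it is not independent evidence of a direction. Of its 1574 genes tested, 23% were upregulated and 2.29% were downregulated at 4 h, with a median log2 fold change of 0.17. Every 4 h library lay above every 0 h library in 42.8% of them, and below in 17.8%. The counts of the gene groups below are read against these shares.

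**Figure D2:**
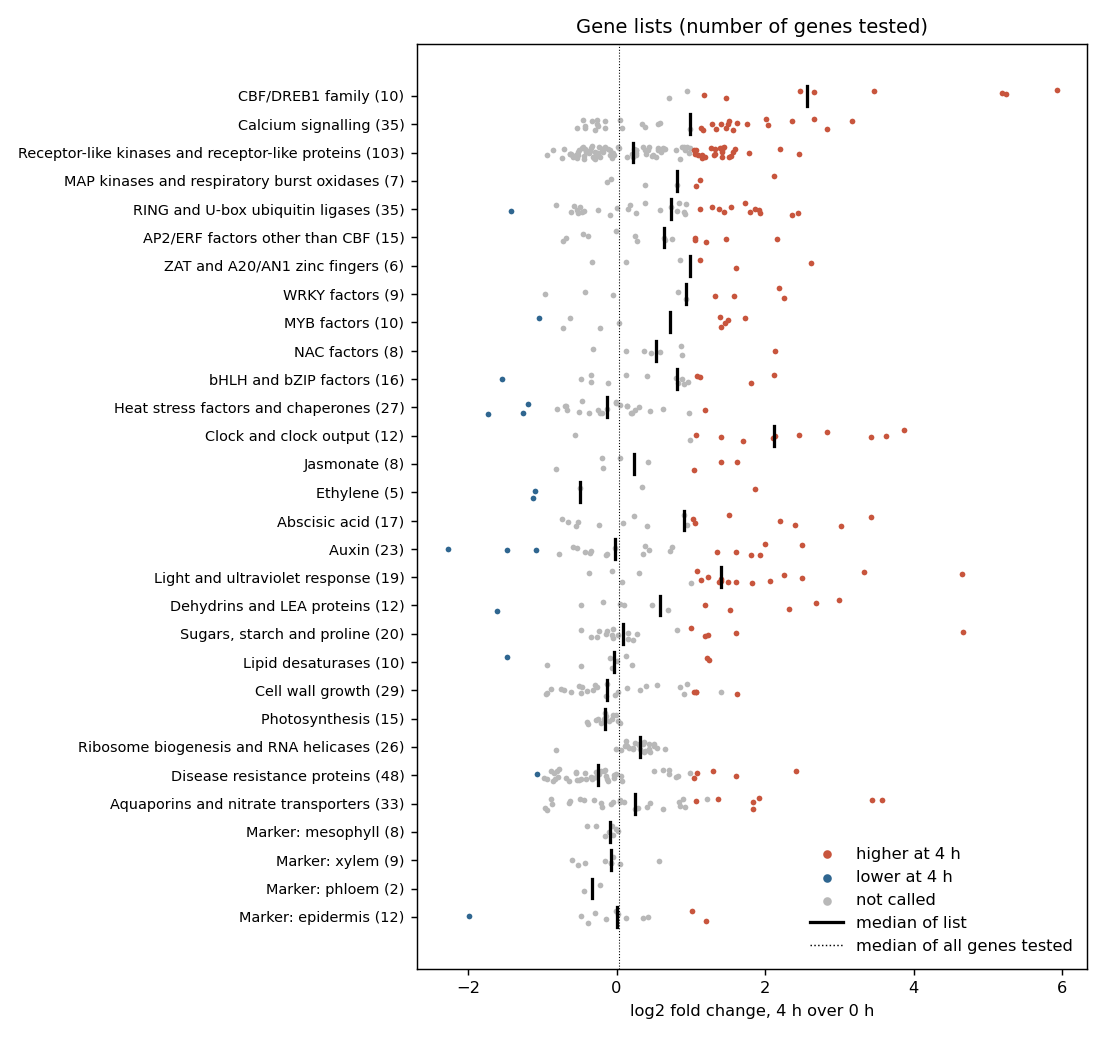
Log2 fold change, 4 h over 0 h, of each tested member of 30 gene groups, with the number tested in parentheses. Red points are members higher at 4 h, blue points members lower at 4 h, grey points members not called, black bars the medians of the groups, and the dotted line the median of all genes tested. The bars of the CBF/DREB1, clock and light groups lie at 2.56, 2.12 and 1.41, and those of photosynthesis and cell wall growth at -0.15 and -0.13.

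Transcripts of LsCBF genes were 3 of the 10 largest rises. The deposited values covered 11 LsCBF genes, of which 10 were tested, 8 were upregulated and none was downregulated, with a median log2 fold change of 2.56. That median ranged between 2.54 and 6.16 under the alternatives run, and edgeR called all 10 higher. In each of the 10, every 4 h library lay above every 0 h library. Of the 10, 7 reached the filter through their 4 h libraries only. The count and the median of the family therefore describe the values and support nothing further. Below, 3 calcium, 11 receptor-like, 3 ubiquitin ligase, 3 auxin and 3 cell wall genes also reached it through 4 h only. So did 2 genes each of the other AP2/ERF, ZAT and A20/AN1, MYB, NAC and jasmonate groups, and 1 gene in some remaining groups. Counts and medians of these groups are likewise set in part by the filter and only describe the values. LsCBF11 had 135, 130.2 and 138 CPM in the 4 h libraries, against 1.03, 1.44 and 1.24 CPM in the 0 h libraries. Among called genes this rise was the largest on the log2(CPM + 1) scale (log2 fold change 5.93, standard error 0.14, adjusted p = 6.44e-11). The libraries of LsCBF11 varied little within each group. The order depends on the pseudocount: in edgeR LsCBF11 had a log2 fold change of 6.71, below 7.24 for LsCBF12 and 9.35 for LsCBF10. LsCBF12 had 46.9, 46.1 and 49.4 CPM at 4 h, against 0.154, 0.148 and 0.571 CPM at 0 h (log2 fold change 5.24, standard error 0.20, adjusted p = 3.56e-09), with 0 h replicate 3 the highest of the warm-grown libraries. LsCBF10 had 34.6, 40.4 and 36.9 CPM at 4 h, against 0.103, 0.0495 and 0 CPM at 0 h, and the 3 reads found at 0 h over the group gave a ratio of 754 with an exact 95% counting interval of 258 to 3661.

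LsCBF7 was already transcribed in warm-grown plants and had 55.2, 67.6 and 56.3 CPM at 4 h, against 3.95, 5.44 and 4.14 CPM at 0 h (log2 fold change 3.47, standard error 0.14, adjusted p = 6.80e-09). The paper reports a nonsense mutation in the AP2 domain of LsCBF7 that truncates its protein, so its transcript level does not stand for a working factor. LsCBF14 had 36.1, 25.1 and 30.5 CPM at 4 h, against 8.61, 9.06 and 13.9 CPM at 0 h. Its rise was smaller (log2 fold change 1.47, standard error 0.19, adjusted p = 8.86e-05), and its 0 h replicate 3 stood nearest to the cold-treated libraries. LsCBF9 and LsCBF5 were almost silent in warm-grown plants. LsCBF9 had 5.86, 6.02 and 6.23 CPM at 4 h, against 0.205, 0.0495 and 0.0952 CPM at 0 h (log2 fold change 2.66, adjusted p = 2.46e-07), and LsCBF5 (counted as Ls9g54101.3, and written under more than 1 ID in the study's sources) had 4.86, 5.38 and 4.94 CPM at 4 h, against 0.103, 0.099 and 0.0952 CPM at 0 h (log2 fold change 2.46, adjusted p = 4.45e-07). The remaining members had low measured values in the cold too. LsCBF3 had 1.43, 1.55 and 2.36 CPM at 4 h, against 0.103, 0.148 and 0.428 CPM at 0 h (log2 fold change 1.17, adjusted p = 1.60e-04). LsCBF4 and LsCBF8 did not reach the log2 threshold. LsCBF4 had 0.792, 0.373 and 1.07 CPM at 4 h, against 0, 0 and 0.19 CPM at 0 h (log2 fold change 0.70, adjusted p = 0.00258) and LsCBF8 had 0.633, 1.07 and 1.13 CPM at 4 h, against 0, 0 and 0 CPM at 0 h (log2 fold change 0.95, adjusted p = 2.62e-04). With no read of LsCBF8 at 0 h, its level at 4 h was at least 19-fold higher than a floor of 3 reads over the 0 h group. In edgeR both were called, with log2 fold changes of 3.33 (adjusted p = 0.00696) for LsCBF4 and 7.28 (adjusted p = 2.00e-04) for LsCBF8, which is a fitted value that depends on the prior count because no read was found at 0 h. LsCBF1, on linkage group 2, was below the filter with 0.317, 0.267 and 0.752 CPM at 4 h, against 0, 0.0495 and 0.0952 CPM at 0 h. Intervals and floors cover counting error only.

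**Figure D3:**
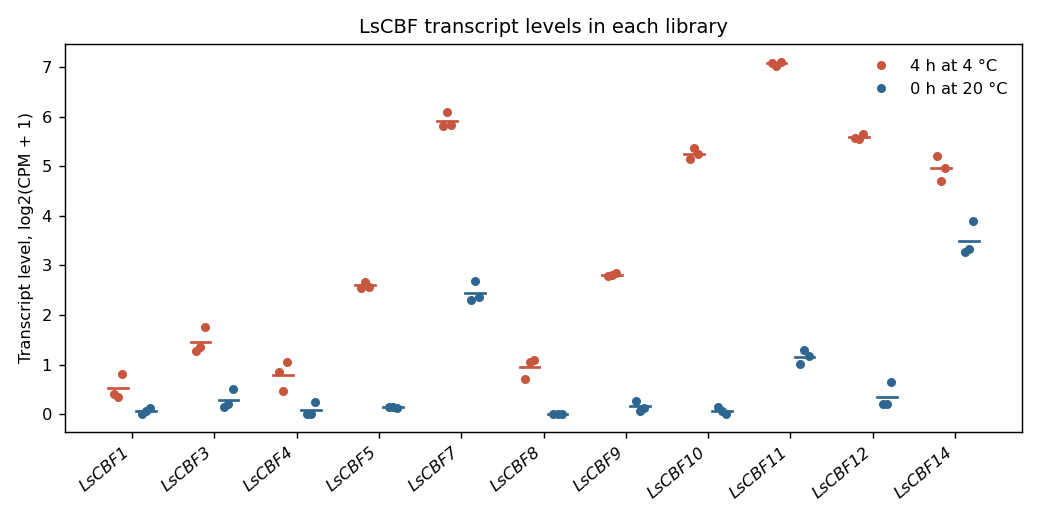
Transcript levels of 11 LsCBF genes, as log2(CPM + 1), with 4 h libraries (red) left of 0 h libraries (blue). Points are single libraries in order of replicate number and bars are means of 3. The 4 h points lie above the 0 h points in every gene, with LsCBF14 at the smallest distance among genes above 10 CPM at 4 h.

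All of these LsCBF genes except LsCBF1 lie on linkage group 9, some as near-identical copies whose reads the counting could have split or shared, so the values of LsCBF8, LsCBF9 and LsCBF10 are uncertain as single genes. The study's qRT-PCR primers are printed here to show which members were measured together and which apart (5′ to 3′, linkage group 9). Primers cover only short sites, so they do not measure how alike the genes are. For LsCBF8 to LsCBF10 a common pair was designed. For LsCBF5 and for LsCBF6, which shares the locus Ls9g54101 in the study's primer list and was not analysed here, so that reads of both may have been counted together, separate primers were designed, and capitals mark the positions at which the primers of LsCBF5 and LsCBF6 differ, 7 of 26 bases in the forward and 5 of 26 in the reverse primer.
LsCBF5 forward: tgaAtacCaaaactcAtatcCCGcaG
LsCBF6 forward: tgaCtacAaaaactcCtatcTAAcaC
LsCBF5 reverse: TgtttgagttTgaagaggatGctaAC
LsCBF6 reverse: CgtttgagttCgaagaggatCctaGA
LsCBF8-10 forward: catgtcgtagcaaaagctcagtcttg
LsCBF8-10 reverse: tttcgtgaagccaacatcacttcgg

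The cold time-points were compared directly to place the 4 h level. All 10 tested LsCBF genes had lower means at 24 h than at 4 h, and 6 of them passed the test (4.03% of all genes did so in that direction). At 7 d, 7 were lower than at 4 h (background 6.36%). Since 7 of the 10 reached the filter through their 4 h libraries only, both counts are tilted toward lower later levels. They describe the values and support nothing further. LsCBF14 alone had a higher mean at 7 d, with an average of 51.1 ± 5.96 CPM after 7 d, against 30.6 ± 5.5 CPM after 4 h (SD, n = 3 each), a log2 difference of 0.73 that did not reach the log2 threshold (adjusted p = 0.00556 from limma).

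Genes of calcium signalling, which decode the calcium rise through pumps, calmodulin-like sensors and calcium-dependent kinases, were upregulated in 17 of 35 tested members and downregulated in none (median 0.99). Calcium-transporting ATPase 2 (Ls4g160760.1), described as a plasma membrane-type calcium pump, had 296, 234 and 304 CPM at 4 h, against 23.9, 28.9 and 38.7 CPM at 0 h (log2 fold change 3.16, standard error 0.18, adjusted p = 8.46e-08). The calmodulin-like protein CML46 (Ls2g87480.3) had 15.2, 8.26 and 14 CPM at 4 h, against 0.513, 0.792 and 1.29 CPM at 0 h (log2 fold change 2.83, adjusted p = 5.47e-06). The calcium-binding protein PBP1 (Ls1g53381.1), known in Arabidopsis as a partner of the kinase PINOID, had 5.96, 7.78 and 11.1 CPM at 4 h, against 0.41, 0.643 and 0.286 CPM at 0 h (log2 fold change 2.65, adjusted p = 3.47e-07). In these 3 genes no 4 h library overlapped a 0 h library, and 4 h replicate 2 was the lowest cold-treated library in the first 2.

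That library was also low in other early signalling groups. Among the 17 upregulated calcium genes 4 h replicate 2 was the lowest of the cold-treated libraries in 13, and it lay a median of 0.22 log2 units below their mean. It was also the lowest in 16 of the 24 upregulated receptor-like genes, 7 of 12 ubiquitin ligases, 4 of 4 WRKY and 4 of 5 MYB factors, but in 2 of 10 clock genes. Over all 1149 upregulated genes it was the lowest library in 48.9%, replicate 1 in 29.9% and replicate 3 in 21.1%. Without 4 h replicate 2, 17 calcium and 28 receptor-like genes were called.

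**Figure D4:**
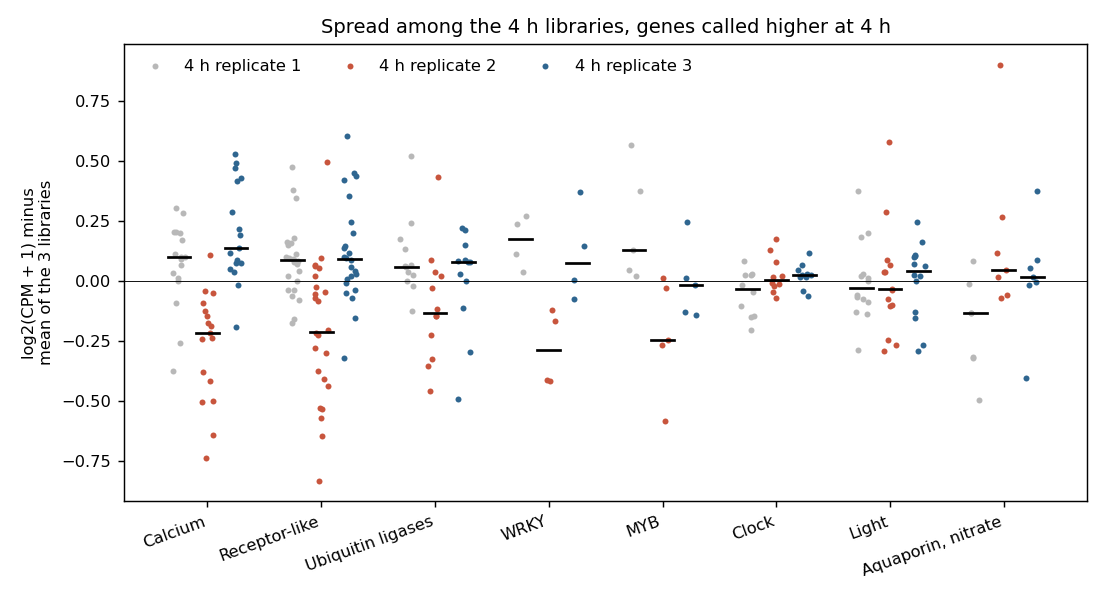
Deviation of each 4 h library from the mean of the 3 libraries of 4 h, in log2(CPM + 1), for the genes called higher at 4 h in 8 groups. Points are genes, black bars medians, and grey, red and blue stand for replicates 1, 2 and 3. Replicate 2 (red) lies below the others in the calcium, receptor-like, ubiquitin ligase, WRKY and MYB groups, with medians between -0.13 and -0.29, and close to 0 in the clock and light groups.

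Receptor-like kinases and receptor-like proteins, which sense signals at the cell surface, were the largest group. Of its 103 members tested 24 were upregulated, or 22 without 0 h replicate 3, and none was downregulated (median 0.23). The upregulated share was close to the 23% of all described genes tested, and the median to their 0.17, so neither sets the group apart. The largest rises were those of the receptor-like kinase Ls1g42701.1, with 6.18, 10.4 and 5.48 CPM at 4 h, against 0.359, 0.792 and 0.333 CPM at 0 h (log2 fold change 2.45, adjusted p = 2.27e-04), of Receptor-like protein 6 (Ls2g66601.2, log2 fold change 2.20), and of Ls1g103040.1, described as EIX2, a receptor of fungal xylanase in tomato, with a log2 fold change of 1.79. The kinase Ls1g42701.1 was highest in 4 h replicate 2, unlike most of its group.

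Among 7 MAP kinases and respiratory burst oxidases, which relay stress signals and make superoxide at the plasma membrane, 3 were upregulated, or 2 without 0 h replicate 3, and none was downregulated. Mitogen-activated protein kinase kinase 4 (Ls1g39620.1) had 12.3, 10.1 and 14.9 CPM at 4 h, against 2.00, 2.23 and 2.00 CPM at 0 h (log2 fold change 2.11, adjusted p = 1.29e-04). The oxidases C (Ls1g30481.3, log2 fold change 1.12) and A (Ls3g11620.1, log2 fold change 1.07) rose less, and oxidase A fell short of the threshold without 0 h replicate 3, at 0.99 (adjusted p = 6.69e-04).

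RING and U-box ubiquitin ligases, which mark proteins for degradation, had 12 upregulated (10 without 0 h replicate 3) and 1 downregulated of 35 tested members (median 0.74). PUB22 (Ls2g53840.1), known in Arabidopsis as a negative regulator of immune and drought responses, had 11.9, 11.7 and 12.2 CPM at 4 h, against 1.59, 1.68 and 1.29 CPM at 0 h (log2 fold change 2.36, standard error 0.12, adjusted p = 5.12e-08). U-box protein 4 (Ls4g131680.1) rose by a log2 fold change of 2.45 and PUB23 (Ls1g58201.1) by 1.93, with 4 h replicate 1 of PUB23 at 15.2 CPM, above the other cold-treated libraries.

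Transcription factors outside the CBF family were upregulated in part. Of 15 other AP2/ERF genes 5 were upregulated, or 3 without 4 h replicate 2, and none was downregulated. ERF4 (Ls1g125981.1), a repressor of ethylene-responsive genes in Arabidopsis, had 6.7, 3.36 and 8.49 CPM at 4 h, against 0.41, 0.643 and 0.524 CPM at 0 h (log2 fold change 2.17, adjusted p = 3.57e-05), and ERF5 (Ls2g128021.1) had a log2 fold change of 1.48. SHINE 3 (Ls1g44740.1), a regulator of cuticular wax in Arabidopsis, had a log2 fold change of 1.20. Of 6 ZAT and A20/AN1 zinc finger genes 3 were upregulated. ZAT10 (Ls1g24181.1), a cold- and salt-induced repressor in Arabidopsis, had 30.9, 22.3 and 30.7 CPM at 4 h, against 3.23, 4.16 and 3.62 CPM at 0 h (log2 fold change 2.62, standard error 0.18, adjusted p = 5.24e-07), a second ZAT10 gene (Ls4g130320.1) had a log2 fold change of 1.12, and the stress-associated protein 5 gene (Ls1g66321.1) one of 1.60. The second ZAT10 gene was not called with a pseudocount of 0.1 CPM, where its adjusted p was 0.0132, and fell to a log2 fold change of 0.95 without 4 h replicate 3.

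Of 9 WRKY genes, whose products bind W-box elements in defence genes, 4 were upregulated and none downregulated. WRKY46 (Ls3g139241.1) had 45.1, 27.6 and 41.3 CPM at 4 h, against 7.08, 6.34 and 7.62 CPM at 0 h (log2 fold change 2.26, adjusted p = 1.12e-06), WRKY7 (Ls4g127960.2) had a log2 fold change of 2.19 and WRKY70 (Ls2g126880.1) one of 1.58. Without 0 h replicate 1 or 0 h replicate 3, 1 WRKY gene was called lower. Of 10 MYB genes 5 were upregulated, or 4 without 0 h replicate 3, and 1 was downregulated, or 0 without 4 h replicate 1. MYB77 (Ls1g19840.1), a factor in auxin-dependent lateral root growth in Arabidopsis, had 3.38, 3.04 and 2.63 CPM at 4 h, against 0.103, 0.297 and 0.238 CPM at 0 h (log2 fold change 1.73, adjusted p = 1.43e-07). MYB113 (Ls3g82160.1), an activator of anthocyanin synthesis in Arabidopsis, had a log2 fold change of 1.497, and Myb-related protein 306 (Ls4g108080.3) one of 1.46.

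Only NAC domain-containing protein 2 (Ls3g101901.1) was upregulated among 8 NAC genes in limma, with 45.6, 47.4 and 46.9 CPM at 4 h, against 8.25, 10.6 and 10.9 CPM at 0 h (log2 fold change 2.13, standard error 0.14, adjusted p = 3.07e-07), whereas edgeR called 3 of the 8, and limma called 2 without 4 h replicate 2. Among 16 bHLH and bZIP genes 4 were upregulated, or 3 without 0 h replicate 3, and 1 was downregulated. Their upregulated share was near the 23% of all described genes tested. bHLH130 (Ls1g110041.2) had 61.8, 65.4 and 55.5 CPM at 4 h, against 11.4, 14.8 and 13.8 CPM at 0 h (log2 fold change 2.12, adjusted p = 2.48e-07), and bZIP50 (Ls2g3181.1) had a log2 fold change of 1.81. PAR2 (Ls3g47940.1), a negative regulator of shade avoidance in Arabidopsis, fell to 5.28, 9.49 and 7.63 CPM at 4 h, against 23.5, 22.5 and 23.2 CPM at 0 h (log2 fold change -1.54, standard error 0.21, adjusted p = 1.77e-04).

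Of 12 clock and clock-output genes 10 were upregulated and none downregulated, with a median log2 fold change of 2.12, and the 4 h and 0 h libraries did not overlap in any of the 12. REVEILLE 1 (Ls3g67100.1), a morning-phased MYB-like factor that links the Arabidopsis clock to auxin, had 282, 283 and 289.9 CPM at 4 h, against 21.4, 17.1 and 17.5 CPM at 0 h (log2 fold change 3.87, standard error 0.14, adjusted p = 1.91e-09). LHY (Ls3g140720.1), a core repressor of the Arabidopsis oscillator that peaks around dawn, had 61, 79.5 and 71.7 CPM at 4 h, against 4.77, 5.59 and 6.81 CPM at 0 h (log2 fold change 3.42, standard error 0.14, adjusted p = 5.65e-09). REVEILLE 8 (Ls2g109801.1), an activator of evening genes in Arabidopsis, had 76.2, 89.5 and 88.7 CPM at 4 h, against 19.5, 21.8 and 15.7 CPM at 0 h (log2 fold change 2.11, standard error 0.13, adjusted p = 1.48e-07).

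The co-activators of these factors and genes for clock output rose as well. LNK4 (Ls1g118261.3) had 46.8, 49.95 and 54.7 CPM at 4 h, against 7.13, 6.04 and 5.47 CPM at 0 h (log2 fold change 2.84, adjusted p = 6.80e-09). LNK2 (Ls1g114861.2) had 122, 147 and 136 CPM at 4 h, against 71.1, 57.2 and 30.9 CPM at 0 h (log2 fold change 1.41, adjusted p = 9.89e-04). In LNK2 the warm-grown libraries were spread, with 0 h replicate 3 the lowest, and its log2 fold change was 1.07 (adjusted p = 5.95e-04) without that library. LNK2 missed the adjusted threshold when only the 6 libraries were fitted (adjusted p = 0.0121). Adagio protein 3 (Ls3g106121.1), a blue-light receptor F-box protein known as FKF1 in Arabidopsis, had 556, 552 and 530.4 CPM at 4 h, against 42.7, 44.9 and 42.1 CPM at 0 h (log2 fold change 3.63, standard error 0.08, adjusted p = 6.44e-11), among the tightest groups of values.

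The cyclic dof factors, repressors of flowering genes that FKF1 targets for degradation in Arabidopsis, were upregulated in 3 of 3 genes. Cyclic dof factor 2 (Ls2g88380.1) had 44.6, 46.8 and 46.9 CPM at 4 h, against 6.31, 6.68 and 10.2 CPM at 0 h (log2 fold change 2.46, adjusted p = 1.11e-07), and the genes described as Cyclic dof factor 3 had log2 fold changes of 2.13 (Ls4g108141.1) and 1.70 (Ls1g14020.3). EARLY FLOWERING 3 (Ls3g25981.2), a subunit of the evening complex in Arabidopsis, had 43.9, 40.7 and 39.6 CPM at 4 h, against 18.1, 20.3 and 19.3 CPM at 0 h (log2 fold change 1.07, adjusted p = 7.77e-06). The pseudo-response regulators, which repress the morning genes in Arabidopsis, were not called. PRR1 (Ls1g14320.1) had 16.8, 17.1 and 14.7 CPM at 4 h, against 9.49, 7.52 and 6.19 CPM at 0 h, with a log2 fold change of 0.99 just under the threshold in limma and 1.02 in edgeR (adjusted p = 6.63e-05). PRR37 (Ls2g115441.2) had 88.6, 82.9 and 82.2 CPM at 4 h, against 131, 131 and 112 CPM at 0 h, a log2 fold change of -0.55.

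Compared directly with 24 h, only REVEILLE 1 and LNK2 of the 12 clock genes were past the threshold, both lower at 24 h (background 4.03%), with log2 differences of -1.38 (adjusted p = 1.54e-05) and -1.29 (adjusted p = 0.0014). None was higher at 24 h (background 2.48%), whereas edgeR and limma with a pseudocount of 0.1 CPM each called PRR1 (Ls1g14320.1) higher. At 7 d, 7 of the 12 were lower than at 4 h (background 6.36%) and none was higher (background 4.14%). In order of time from 0 h to 7 d, LHY averaged 5.72 ± 1.03, 70.8 ± 9.3, 52.8 ± 5.71 and 30.2 ± 2.56 CPM (SD, n = 3 each). Adagio protein 3 averaged 43.2 ± 1.47, 546 ± 13.5, 623 ± 31.5 and 333 ± 3.84 CPM in the same order (SD, n = 3 each).

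**Figure D5:**
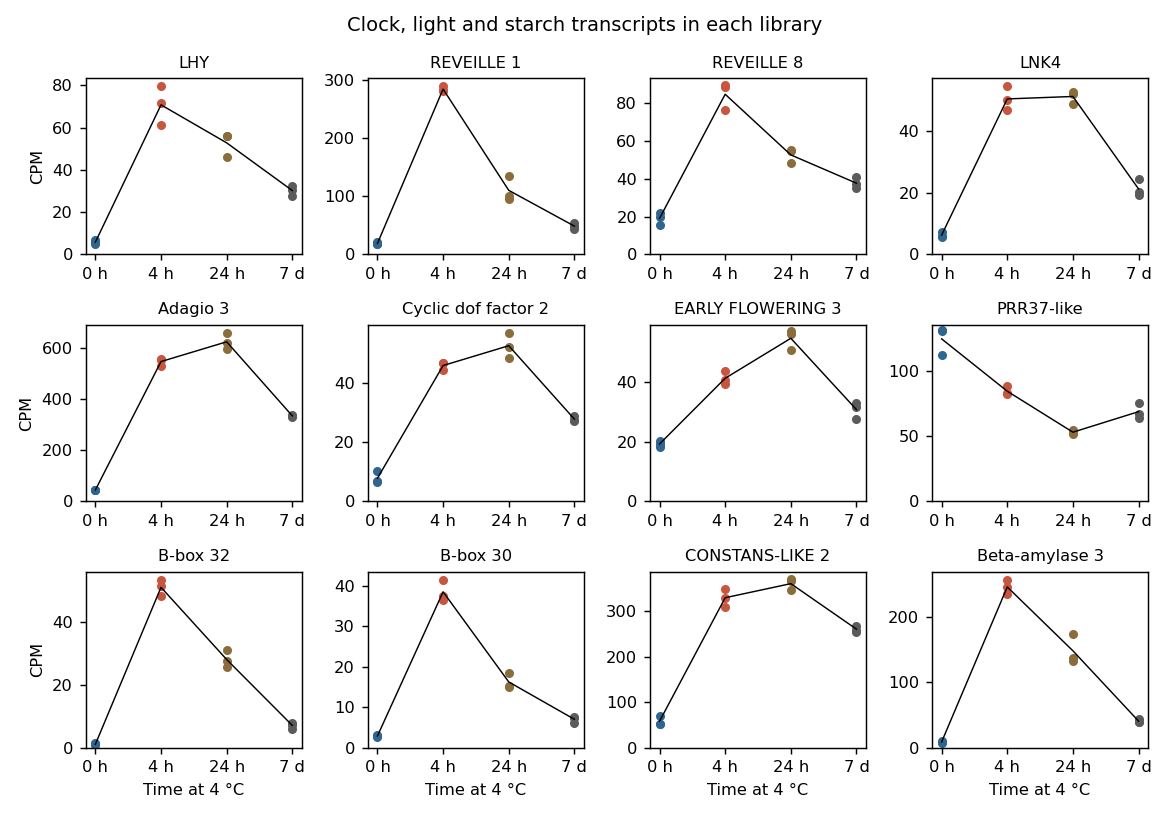
CPM of 12 clock, light and starch transcripts in each library (points) at the 4 time-points, with lines joining the means of 3 libraries. Time at 4 °C is not drawn to scale. All but the PRR37-like gene lie above their 0 h values at 4 h, with REVEILLE 1 at 285 CPM on average at 4 h and 18.7 CPM at 0 h.

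Genes of light and ultraviolet responses were upregulated in 14 of 19 tested members, or 13 without 0 h replicate 3, and downregulated in none (median 1.41). Light was lower at 4 h, and whether these rises followed light, cold or time of day was not tested. B-box proteins are zinc finger regulators of seedling light responses in Arabidopsis. B-box protein 32 (Ls1g39541.1) had 51.6, 48.5 and 53.5 CPM at 4 h, against 1.13, 0.792 and 1.38 CPM at 0 h (log2 fold change 4.64, standard error 0.13, adjusted p = 1.56e-10). B-box protein 30 (Ls3g41740.3) had 36.5, 37.6 and 41.5 CPM at 4 h, against 3.18, 2.77 and 2.81 CPM at 0 h (log2 fold change 3.33, adjusted p = 1.06e-09), and CONSTANS-LIKE 2 (Ls2g86121.1) had 309, 349 and 329 CPM at 4 h, against 51.9, 52.9 and 69.5 CPM at 0 h (log2 fold change 2.49, adjusted p = 1.60e-08). The groups did not overlap in any of these 3 genes.

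Of the genes of soluble sugars, starch and proline 5 of 20 were upregulated, or 4 without 0 h replicate 3 and 3 without 4 h replicate 2. None was downregulated (median 0.08), and the upregulated share was near the 23% of all described genes tested. Beta-amylase 3 (Ls3g15861.1), a chloroplast enzyme that releases maltose from starch, had 235, 257 and 247 CPM at 4 h, against 8.46, 10.6 and 7.43 CPM at 0 h (log2 fold change 4.66, standard error 0.14, adjusted p = 2.44e-10). Trehalose-phosphate phosphatase A (Ls2g129041.2), which makes trehalose, had 45, 48.8 and 52.1 CPM at 4 h, against 18.8, 17.5 and 10.8 CPM at 0 h (log2 fold change 1.61, adjusted p = 7.32e-05). A galactinol-sucrose galactosyltransferase (Ls0g32100.1), the enzyme class that makes raffinose, had a log2 fold change of 1.24 with a standard error of 0.10.

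Dehydrins and LEA proteins, hydrophilic proteins that protect membranes and enzymes during dehydration, were upregulated in 5 of 12 tested members and downregulated in 1 (median 0.59). CS120 (Ls3g76921.1), described as a cold-shock protein of this class, had 13.9, 14.2 and 14.6 CPM at 4 h, against 0.974, 0.841 and 0.952 CPM at 0 h (log2 fold change 2.99, standard error 0.09, adjusted p = 5.87e-10). The LEA proteins described as ECP63 had 148, 166 and 159 CPM at 4 h, against 20.6, 21.6 and 29.6 CPM at 0 h for Ls2g24040.2, and log2 fold changes of 2.68 (Ls2g24040.2) and 2.33 (Ls2g23920.1). Dehydrin COR47 (Ls3g74761.1) was below the filter, with 0.0528, 0.107 and 0.215 CPM at 4 h, against 0.205, 0 and 0.0952 CPM at 0 h. These 5 rises were past the threshold without 0 h replicate 3 as well.

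Lipid desaturases, which add double bonds to membrane fatty acids, were called in 3 of 10 members and in both directions. Of 4 genes described as delta(12) desaturases 2 rose, with 28.5, 15.9 and 19.1 CPM at 4 h, against 6.67, 9.16 and 8.81 CPM at 0 h for Ls3g133981.1 (log2 fold change 1.24, adjusted p = 0.00165) and a log2 fold change of 1.22 for Ls3g133940.2, both highest in 4 h replicate 1, and the other 2 were not called, with overlapping groups. Without 0 h replicate 1, 2 desaturases were lower in place of 1. The plastid delta-7 desaturase (Ls1g33240.3) fell to 4.17, 2.99 and 3.01 CPM at 4 h, against 7.84, 12.8 and 13.5 CPM at 0 h (log2 fold change -1.47, adjusted p = 5.35e-04).

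Among hormone pathways, abscisic acid had 7 upregulated of 17 genes, or 6 without 0 h replicate 3, and none downregulated (median 0.91). MARD1 (Ls1g83600.1), a zinc finger protein of abscisic acid responses in Arabidopsis seeds, had 113, 118 and 117 CPM at 4 h, against 9.64, 11.5 and 8.85 CPM at 0 h (log2 fold change 3.42, standard error 0.11, adjusted p = 5.34e-10). Abscisic acid 8'-hydroxylase 1 (Ls3g20400.1), which breaks the hormone down, had 172, 159 and 183 CPM at 4 h, against 20.5, 28.5 and 14.1 CPM at 0 h (log2 fold change 3.02, adjusted p = 1.87e-06). Protein phosphatase 2C 3 (Ls2g118601.1), of the class that represses the pathway, had 116, 126 and 119 CPM at 4 h, against 22.1, 22.1 and 21.4 CPM at 0 h (log2 fold change 2.41, adjusted p = 5.65e-09). In all 3 genes the 4 h and 0 h libraries were separate.

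Jasmonate genes were upregulated in 3 of 8, or 2 without 0 h replicate 3 (median 0.23). Allene oxide synthase (Ls1g19560.1), an early enzyme of jasmonate synthesis, had 34.4, 27.7 and 34.8 CPM at 4 h, against 10.7, 11.2 and 12.7 CPM at 0 h (log2 fold change 1.41, adjusted p = 9.17e-06), TIFY 9 (Ls3g31461.2), of the family of jasmonate repressors, had a log2 fold change of 1.62, and the jasmonate-oxidising Cytochrome P450 94C1 (Ls1g48460.1) had 1.05, or 0.98 and no call without 0 h replicate 3. Of 5 ethylene genes 1 was upregulated and 2 were downregulated. 1-aminocyclopropane-1-carboxylate synthase (Ls3g8840.1), which makes the ethylene precursor, rose to 46.2, 41.7 and 41.7 CPM at 4 h, against 8.31, 12.8 and 13 CPM at 0 h (log2 fold change 1.86, adjusted p = 2.17e-06). Both genes of Ethylene-insensitive protein 2, the signal transducer behind the receptors, were downregulated, with 52.2, 53.7 and 54.9 CPM at 4 h, against 108, 114 and 125 CPM at 0 h for Ls1g53261.1 (log2 fold change -1.09, adjusted p = 1.33e-05) and a log2 fold change of -1.12 for Ls2g106480.2, which was -0.998 and not called without 0 h replicate 3. Another synthase gene (Ls4g158301.1) and ETHYLENE INSENSITIVE 3 (Ls2g35880.1) were not called.

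Auxin genes were called in both directions, 6 upregulated and 3 downregulated of 23 (median -0.02), with 2 downregulated without 0 h replicate 3. As a share, the upregulated members were near the 23% of all described genes tested. Among called genes averaging 1 CPM or more, the largest fall was that of SAUR22 (Ls3g45581.1), of a family of small transcripts that promote cell expansion, with 0.475, 0.213 and 0.86 CPM at 4 h, against 5.28, 7.23 and 6.28 CPM at 0 h (log2 fold change -2.27, standard error 0.17, adjusted p = 1.26e-06). IAA16 (Ls4g104440.2), an auxin-response repressor, had 22.2, 24.3 and 22.3 CPM at 4 h, against 3.9, 2.47 and 3.43 CPM at 0 h (log2 fold change 2.502, adjusted p = 5.31e-08), and PIN-LIKES 5 (Ls3g69900.2), an auxin carrier of the endoplasmic reticulum, had 18.6, 36.4 and 24.9 CPM at 4 h, against 5.74, 5.79 and 5.47 CPM at 0 h (log2 fold change 2.00, adjusted p = 0.00151), with 4 h replicate 2 far above the other cold-treated libraries.

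Of 27 heat stress factors and chaperones 1 was upregulated, or 2 without 4 h replicate 2, and 3 were downregulated (median -0.13). Their summed level was 284 to 295 CPM at 4 h and 396 to 445 CPM at 0 h. The chloroplast chaperone dnaJ 11 (Ls2g12921.1) had 11.5, 15.9 and 14.3 CPM at 4 h, against 42.7, 55.6 and 47 CPM at 0 h (log2 fold change -1.73, standard error 0.14, adjusted p = 2.64e-06). Heat stress transcription factor B-2a (Ls2g133880.1) had 12.1, 11.4 and 12.6 CPM at 4 h, against 32.3, 32.1 and 26.8 CPM at 0 h (log2 fold change -1.26, adjusted p = 9.18e-06), while HSF24 (Ls3g90920.1) rose by a log2 fold change of 1.20. The median moved to -0.37 without 4 h replicate 1 and reached 0.04 under the alternative where it was highest, so no direction is given for the group.

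Disease resistance proteins, intracellular immune receptors, were called in 6 of 48 members, 5 upregulated and 1 downregulated, with a median of -0.26. Without 0 h replicate 1 the upregulated members were 3, and the downregulated members were 2 without 0 h replicate 1, 0 h replicate 3 or 4 h replicate 1 and 0 without 4 h replicate 2. Those with the largest rises were 3 genes described as TMV resistance protein N. Ls1g91940.1 had 29.9, 26.4 and 33.3 CPM at 4 h, against 4.51, 6.29 and 3.76 CPM at 0 h (log2 fold change 2.42, adjusted p = 2.47e-06), Ls2g4981.1 had a log2 fold change of 1.61 and Ls1g91880.3 one of 1.29. In edgeR 8 members were higher and 7 lower, so the balance of the group differed between the tests.

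Aquaporins and nitrate transporters, which move water and nitrate across membranes, were upregulated in 7 of 33 members and downregulated in none (median 0.25), and edgeR called 6 higher and 3 lower. The upregulated share in limma was near the 23% of all described genes tested. Without 0 h replicate 3, 9 were higher, and 1 was lower without 4 h replicate 1 and 2 without 4 h replicate 2 or 0 h replicate 1. The NRT1/PTR FAMILY 1.2 gene (Ls1g47261.1) had 27.9, 28.4 and 28 CPM at 4 h, against 1.49, 0.99 and 2.00 CPM at 0 h (log2 fold change 3.57, standard error 0.14, adjusted p = 4.35e-09). The high-affinity nitrate transporter 2.7 (Ls2g91541.1) had 24.4, 66.1 and 26.1 CPM at 4 h, against 1.74, 2.43 and 2.9 CPM at 0 h (log2 fold change 3.43, adjusted p = 4.98e-06), and transporter 2.1 (Ls1g62501.1) had 5.49, 6.77 and 9.51 CPM at 4 h, against 1.85, 0.792 and 0.952 CPM at 0 h (log2 fold change 1.91, adjusted p = 1.15e-04). In transporter 2.7 the 4 h replicate 2 was more than double the other cold-treated libraries, although all 3 lay above the warm-grown ones.

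Cell wall genes were upregulated in 4 of 29 and downregulated in none (median -0.13), whereas edgeR called 7 higher and 2 lower. The upregulated share in limma was below the 23% of all described genes tested. Every 4 h library lay above every 0 h library in 9 members and below in 10, against 42.8% and 17.8% of those genes. In limma 3 were higher without 0 h replicate 3 and 2 without 0 h replicate 2, and 1 was lower without 4 h replicate 1 or 0 h replicate 1. Polygalacturonases, which cut pectin, had 9.08, 13.4 and 7.58 CPM at 4 h, against 3.08, 2.38 and 2.14 CPM at 0 h for Ls1g40460.1 (log2 fold change 1.62, adjusted p = 8.93e-05) and a log2 fold change of 1.07 for Ls1g40420.1, which dropped to 0.99 and was not called without 0 h replicate 3. Pectinesterase inhibitor 9 (Ls3g2381.1) had 0.897, 2.45 and 0.806 CPM at 4 h, against 0.0513, 0.148 and 0.0476 CPM at 0 h, and its call was lost in 4 of the 6 fits that left out a library. The summed level of the group was 1991 to 2153 CPM at 4 h and 2382 to 4054 CPM at 0 h, a wide range among the warm-grown libraries.

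The genes of photosynthesis and of ribosome biogenesis did not pass the test at 4 h. None of 15 photosynthesis genes was called in limma or edgeR, and the log2 fold changes ran from -0.39 to 0.05 (median -0.15). Only 2 of the 15 had log2 fold changes above 0. In 8 every 4 h library lay below every 0 h library, as in 17.8% of all described genes tested, and in 0 above. The group summed to 58960.5 to 60480.1 CPM at 4 h and 62504 to 65148 CPM at 0 h. None of 26 genes for ribosome biogenesis and RNA helicases was called in limma, whereas 1 was lower in edgeR and also in limma without 0 h replicate 3. Of the 26, 24 had log2 fold changes above 0 (median 0.31). In 14 every 4 h library lay above every 0 h library, as in 42.8% of all described genes tested, and in 1 below. The median was 0.18 without 0 h replicate 3.

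Epidermal markers, genes of cuticle and wax formation, were called in 3 of 12 and in both directions, with a median of 0.01 whose sign turned under the TMM and RLE scalings. Of the 3 calls 2 were higher, or 1 without 4 h replicate 1 or 0 h replicate 2. ECERIFERUM 26 (Ls2g47181.1), an acyl-elongation factor of wax synthesis in Arabidopsis, had 0.317, 0.64 and 0.322 CPM at 4 h, against 2.56, 4.11 and 8.81 CPM at 0 h (log2 fold change -1.99, adjusted p = 2.65e-04), with 0 h replicate 3 the highest, and its log2 fold change was -1.59 without that library. ECERIFERUM 3 (Ls1g30681.1), an enzyme of alkane synthesis in Arabidopsis, had 6.23, 6.02 and 5.91 CPM at 4 h, against 2.41, 2.18 and 2.9 CPM at 0 h (log2 fold change 1.02, adjusted p = 1.60e-05), and 0.98 and no call under TMM scaling. The summed level of the 12 markers was 221 to 238 CPM at 4 h and 189 to 229 CPM at 0 h.

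Among the 10 largest rises of genes averaging 1 CPM or more, 5 were genes described above (LsCBF11, LsCBF12, LsCBF10, beta-amylase 3 and B-box protein 32) and 5 had no description in the sources used here. Of those without one, Ls8g131201.1 had 58, 59 and 70.1 CPM at 4 h, against 0.308, 0.792 and 0.714 CPM at 0 h (log2 fold change 5.31, standard error 0.16, adjusted p = 3.01e-10), and Ls4g78101.2 had 163, 189 and 171 CPM at 4 h, against 6.92, 7.52 and 2.86 CPM at 0 h (log2 fold change 4.78, adjusted p = 8.46e-08). Among the 10 largest falls, 2 were SAUR22 and ECERIFERUM 26 and 8 had no description. Ls5g99920.1 had 11.5, 13.6 and 10.7 CPM at 4 h, against 67.7, 56.3 and 51.7 CPM at 0 h (log2 fold change -2.20, standard error 0.13, adjusted p = 1.03e-07), and Ls6g101900.3 had 5.86, 8.1 and 4.41 CPM at 4 h, against 16.1, 28.3 and 45.3 CPM at 0 h (log2 fold change -2.03, adjusted p = 0.00101), with values at 0 h that ranged over more than those at 4 h. All 20 genes had separate groups, as the rule for naming them required.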

How the data were processed

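Above-ground tissue was sequenced as 12 libraries, 3 per time-point, and the 6 libraries of 4 h and 0 h are the subject here. According to the labels and the methods, paired-end reads of 150 bp were mapped with STAR 2.5.2 to version 8 of the lettuce genome and counted per gene with featureCounts, whose strand setting is not given in the sources used here. The authors deposited CPM values, scaled by library size only. Multiplied by library size, 100% of the values were whole reads within 0.01 reads, so read counts were recovered.

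Limma 3.58.1 (lmFit and eBayes, R 4.3.3) was fitted to log2(CPM + 1) of all 12 libraries, and p-values were adjusted by Benjamini-Hochberg over the 21786 genes that 2 or more of the 6 libraries held at 0.5 CPM or more. The deposited values being CPM, the count tests edgeR 4.0.16 and DESeq2 1.42.0 on recovered reads served as alternatives, beside another pseudocount, other filters, scalings, thresholds and variance models, a replicate block, and each library left out. The scripts were tested on simulated data.

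Named were all LsCBF, clock and reference genes, in each of the other groups at most 3 called genes with the largest change, and the 10 largest rises and falls with at least 1 CPM on average and no overlap. Members and lists were chosen with earlier results of these data known. Genes were grouped by words in the study's descriptions, and no set test was made. The replicates are described as biological, but whether plants were pooled is not stated, and p-values measure only the spread between these samples. Promoters were not analysed here.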

Additional observations from a re-analysis of the deposited data

How the results depend on the processing

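The number of upregulated genes was 1354 with a pseudocount of 0.1 CPM, 1100 with TMM and 1085 with RLE scaling, 1059 with only the 6 libraries, 1373 in edgeR and 1433 in DESeq2, against 1149 in the reported test, and 311 in a test against a 2-fold change itself. It ranged between 1074 and 1163 when 1 library was left out. The number of downregulated genes moved more, to 212 with a pseudocount of 0.1 CPM, 281 in edgeR, 328 in DESeq2 and 6 in the test against a 2-fold change, against 132, and ranged between 122 and 206 when 1 library was left out, the highest without 0 h replicate 3. In edgeR without 0 h replicate 3, an alternative chosen after seeing the data, it was 416, and the cause was not tested. Upregulated genes were 89.7% of the called genes and 83% in edgeR. Over all genes the median change was 0.03 on the log2 scale, and -0.01 with TMM scaling.

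No pairing of the samples by replicate number was seen, but the check cannot show that pairing was absent. With 3 libraries per group, deviations from the group mean are not independent of each other. The deviations of same-numbered 4 h and 0 h libraries correlated at -0.22, 0.12 and -0.07, and not every library correlated best with its own number. With the replicate block 1157 genes were higher and 133 lower. Of 103 named genes tested, 91 kept call and direction under every alternative other than the test against a 2-fold change, in which 44 calls were lost. EIF2a, which was never called, had log2 fold changes of -0.0026 with TMM and -0.013 with RLE scaling, -0.0029 in edgeR, -0.014 in DESeq2, and -0.056 in edgeR without 0 h replicate 3, and in limma ranged between -0.050 and 0.11 when 1 library was left out, the lowest without 0 h replicate 3. The numbers of LsCBF and clock genes lower at 24 h and 7 d than at 4 h stayed within 1.5 times under the alternatives run (edgeR, a pseudocount of 0.1 CPM and TMM scaling).

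At this depth 1 read was worth about 0.05 CPM, so ratios of genes with few reads at 0 h, such as LsCBF10, have wide counting intervals, and their fold changes with a pseudocount of 1 are smaller than the ratios of CPM.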

Other observations

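Outside the 30 groups, 1000 described genes were tested, of which 207 were upregulated and 21 downregulated, and those named here were chosen after their values were seen. The mitochondrial Nudix hydrolase 17 (Ls0g45961.1), of a family that cleaves nucleoside diphosphate derivatives, had 81.9, 87.5 and 90.0 CPM at 4 h, against 3.95, 4.9 and 2.71 CPM at 0 h (log2 fold change 4.20, standard error 0.16, adjusted p = 2.84e-09). S-adenosylmethionine decarboxylase (Ls2g86141.4), an enzyme of polyamine synthesis, had 65, 84.1 and 84.9 CPM at 4 h, against 6.77, 5.2 and 5.52 CPM at 0 h (log2 fold change 3.53, adjusted p = 8.17e-09). The BON1-associated protein 2 gene (Ls3g136181.3), a cell-death regulator in Arabidopsis, had 6.7, 4.64 and 9.83 CPM at 4 h, against 0.103, 0.247 and 0.19 CPM at 0 h (log2 fold change 2.72, adjusted p = 1.66e-06). Among the falls, Gibberellin-regulated protein 6 (Ls2g90361.1) had 103, 114 and 95.8 CPM at 4 h, against 366, 365 and 289.9 CPM at 0 h (log2 fold change -1.69, adjusted p = 7.58e-06), and the F-box/kelch-repeat gene Ls1g58781.1 had 43.5, 47 and 40.3 CPM at 4 h, against 106, 103 and 123 CPM at 0 h (log2 fold change -1.32, adjusted p = 1.51e-04). LONGIFOLIA 1 (Ls3g96320.1), a promoter of leaf elongation in Arabidopsis, had 12.6, 15.4 and 12.5 CPM at 4 h, against 23.6, 40.04 and 35.7 CPM at 0 h (log2 fold change -1.21, adjusted p = 3.12e-04). The 4 h and 0 h libraries did not overlap in these 6 genes.

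Some genes differed more between the 4 h libraries than the early signalling groups did. Berberine bridge enzyme-like 8 (Ls3g107800.1) had 15.8, 38.4 and 13.9 CPM at 4 h, against 0.923, 1.29 and 0.904 CPM at 0 h, the trypsin inhibitor gene Ls3g123400.1 had 10.3, 38.6 and 8.44 CPM at 4 h, against 1.49, 1.68 and 0.619 CPM at 0 h, and DETOXIFICATION 42 (Ls1g106860.1), a transporter of the MATE family, had 7.92, 20.5 and 6.66 CPM at 4 h, against 0.513, 0.346 and 0.857 CPM at 0 h. In each, 4 h replicate 2 was more than double the other cold-treated libraries, whereas it was the lowest in most upregulated calcium genes. Chaperone genes differed in another library. The heat shock 70 kDa gene Ls1g91141.2 had 4.54, 0.373 and 0.269 CPM at 4 h, against 0.82, 1.44 and 1.19 CPM at 0 h. The related genes Ls1g91700.1 and Ls1g93321.1 had 4.22, 0.0533 and 0.752 CPM and 6.97, 1.28 and 1.67 CPM at 4 h, against 0.718, 2.28 and 1.57 CPM and 1.9, 2.38 and 2.33 CPM at 0 h. None of these 3 was called in limma, and in each 4 h replicate 1 was the highest of the 6 libraries.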
